A study of Mus musculus with 10 samples.

Results

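Transcripts of 9 proteases that cut amyloid β (Aβ) or the extracellular matrix were followed in microglia sorted from the hippocampus of aged 3xTg mice. The genes were taken by symbol from a table of raw read counts: *Mme*, *Ide*, *Ece1*, *Ece2*, *Plau*, *Plat*, *Mmp2*, *Mmp9* and *Mmp14*, which are 9 of 55453 genes. All 9 symbols were in the table, 7 had at least 1 count in any library, and 6 passed the filter on low counts, which left 14481 genes for testing. 3xTg mice carry mutated human transgenes, among them APP Swedish and MAPT P301L, which the study's methods place under the Thy1.2 promoter, a promoter active in neurons. Both groups carried them, and wild-type microglia were not analysed here. The mice were females over 15 months old. The GA group (5 libraries) received glatiramer acetate (GA), a synthetic copolymer of glutamic acid, alanine, tyrosine and lysine used in multiple sclerosis, at 0.1 mg each week for about 8 weeks by the labels, and the study's methods add an extra injection in the first week. The PBS group (5 libraries) carries the label PBS, the vehicle. Cells were gated as CD45int CD11b+, and a library holds the pooled RNA of the cells sorted for it.

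Libraries are named here by their titles. All 5 PBS libraries carry the prefix 388 (388_1 to 388_5), and the GA libraries carry 394 (394_1 and 394_2) or 400 (400_1, 400_2 and 400_3). The labels do not say what a prefix stands for, so treatment and prefix cannot be told apart. Nor do they say that each library came from a separate mouse, so p-values measure the spread between these libraries. Depth ran from 32332185 to 38764643 counts per library. The microglial markers *P2ry12* and *Tmem119* held 5566 to 7346 and 4923 to 6468 CPM (read counts scaled to each library's normalized total) over the libraries. Neutrophil markers were uneven, with a summed level of 35.6 to 437 CPM in PBS libraries and 9.67 to 162 CPM in GA libraries, and markers of border macrophages summed to 29.5 to 165 CPM.

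The proteases belong to several families, some built around a zinc ion and others around a reactive serine. Neprilysin (*Mme*) and the endothelin-converting enzymes (*Ece1*, *Ece2*) are zinc metallopeptidases of one family, anchored in membranes, that hydrolyse small peptides including Aβ; insulysin (*Ide*) is a mostly cytosolic zinc enzyme with an inverted version of the same zinc motif that cuts insulin and Aβ monomers. Urokinase (*Plau*) and tissue plasminogen activator (*Plat*) are serine proteases that convert plasminogen to plasmin, which degrades fibrin, matrix and aggregated Aβ. The gelatinases (*Mmp2*, *Mmp9*) and the membrane-bound collagenase *Mmp14* are matrix metalloproteinases, made as inactive proenzymes; *Mmp14* together with *Timp2* activates proMMP-2 at the cell surface. Control at the protein level, by activation and inhibitors, is not visible in RNA counts.

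The coding sequence around the catalytic residues is printed by family for the members with a complete coding transcript in the annotation used (GENCODE M21, GRCm38, all on the plus strand and within coding exons). The families were set beforehand, and bases were compared only within a family. In the matrix metalloproteinases the capitals mark the codons of the zinc-binding histidines and of the catalytic glutamate.
Mmp2: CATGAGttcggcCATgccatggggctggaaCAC
Mmp9: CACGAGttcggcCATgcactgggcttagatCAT
Mmp14: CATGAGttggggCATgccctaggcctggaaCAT
These lie at chr8:92839279-92839311 in exon 8 of *Mmp2*, chr2:164951133-164951165 in exon 8 of *Mmp9* and chr14:54437627-54437659 in exon 5 of *Mmp14*. Of 33 bases, *Mmp2* and *Mmp14* share 27, *Mmp2* and *Mmp9* share 25, and *Mmp9* and *Mmp14* share 25. In the neprilysin family the capitals mark the codons of the paired histidine and glutamate and of the next histidine.
Mme: attggaCATGAAatcacaCATggattt
Ece1: gtgggcCACGAGctgactCACgctttc
Ece2: atgggcCATGAGttgacaCATgccttt
These lie at chr3:63362015-63362041 in exon 18 of *Mme*, chr4:137957166-137957192 in exon 17 of *Ece1* and chr16:20643884-20643910 in exon 16 of *Ece2*. Of 27 bases, *Ece2* shares 20 with *Mme* and 20 with *Ece1*, while *Mme* and *Ece1* share 15. In the plasminogen activators the capitals mark the codon of the catalytic serine.
Plau: aagggcgatTCTggaggaccgctt
Plat: cagggtgacTCGggaggccctctg
Both stretches are interrupted by an intron, between exons 10 and 11 of *Plau* (chr14:20841092-20842294 in all) and between exons 13 and 14 of *Plat* (chr8:22780587-22781968), and they share 17 of 24 bases. No exon base of *Mme*, *Ide*, *Ece1*, *Plau*, *Plat*, *Mmp2*, *Mmp9* or *Mmp14* is shared with another annotated gene.

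The libraries of sorted cells held abundant *Mmp2*, moderate *Ide*, *Ece1* and *Mmp14*, little *Plau* and *Mmp9*, and no detected *Mme* or *Plat*. *Mme*, the membrane peptidase most often named as an Aβ-degrading enzyme, had 0 counts in all 10 libraries. *Plat* likewise had 0 counts in all 10 libraries. With 0 of 352950173 counts over the series, a level of up to 0.00850 CPM is allowed for each, and 0.0774 to 0.0928 CPM within a single library (3 counts divided by the total, counting error only). *Ece2* had 1 count, in GA library 400_3, which over the series corresponds to an exact binomial 95% interval of 7.18e-05 to 0.0158 CPM. *Ece2* is uncertain for another reason: 2937 of its 5110 exon bases (57.5%) are shared with *Gm49333*, a gene on the same strand that also had 0 counts, and reads in shared exons may have been left unassigned in counting. Counts of 0 in every library were common in the table, at 27.9% of 21850 protein-coding genes. No group difference can be given for *Mme*, *Ece2* or *Plat*.

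Per length of exon, the 6 detected members spanned from the upper part to just under the middle of the tested genes, whose median level was 4.30 CPM per kb. *Mmp2* stood highest at 22.9 ± 1.61 CPM per kb (SD, n = 10 libraries), at the 86.1 percentile of tested genes. *Ide* followed at 9.04 ± 1.05 CPM per kb, at the 67.2 percentile. *Ece1* was at 5.39 ± 0.91 CPM per kb and *Mmp14* at 4.93 ± 0.53 CPM per kb. *Plau* was at 2.98 ± 0.84 CPM per kb and *Mmp9* at 2.91 ± 1.74 CPM per kb. The ranges over libraries did not overlap between *Mmp2* and *Ide* or between *Ide* and *Ece1*. *Ece1* exceeded *Mmp14* in 6 of 10 libraries and *Plau* exceeded *Mmp9* in 5 of 10, so the members of neither pair could be ordered. *Mmp14* exceeded *Plau* in 10 of 10 libraries although their ranges overlapped across libraries. When length was taken from the longest transcript instead of all exons, *Mmp14* moved to 9.07 CPM per kb, above *Ece1* at 5.93 CPM per kb, and *Mmp9* to 3.24 CPM per kb, above *Plau* at 3.01 CPM per kb, while *Mmp2* and *Ide* stayed at the top with 25.1 and 13.7 CPM per kb.

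**Figure D1:**
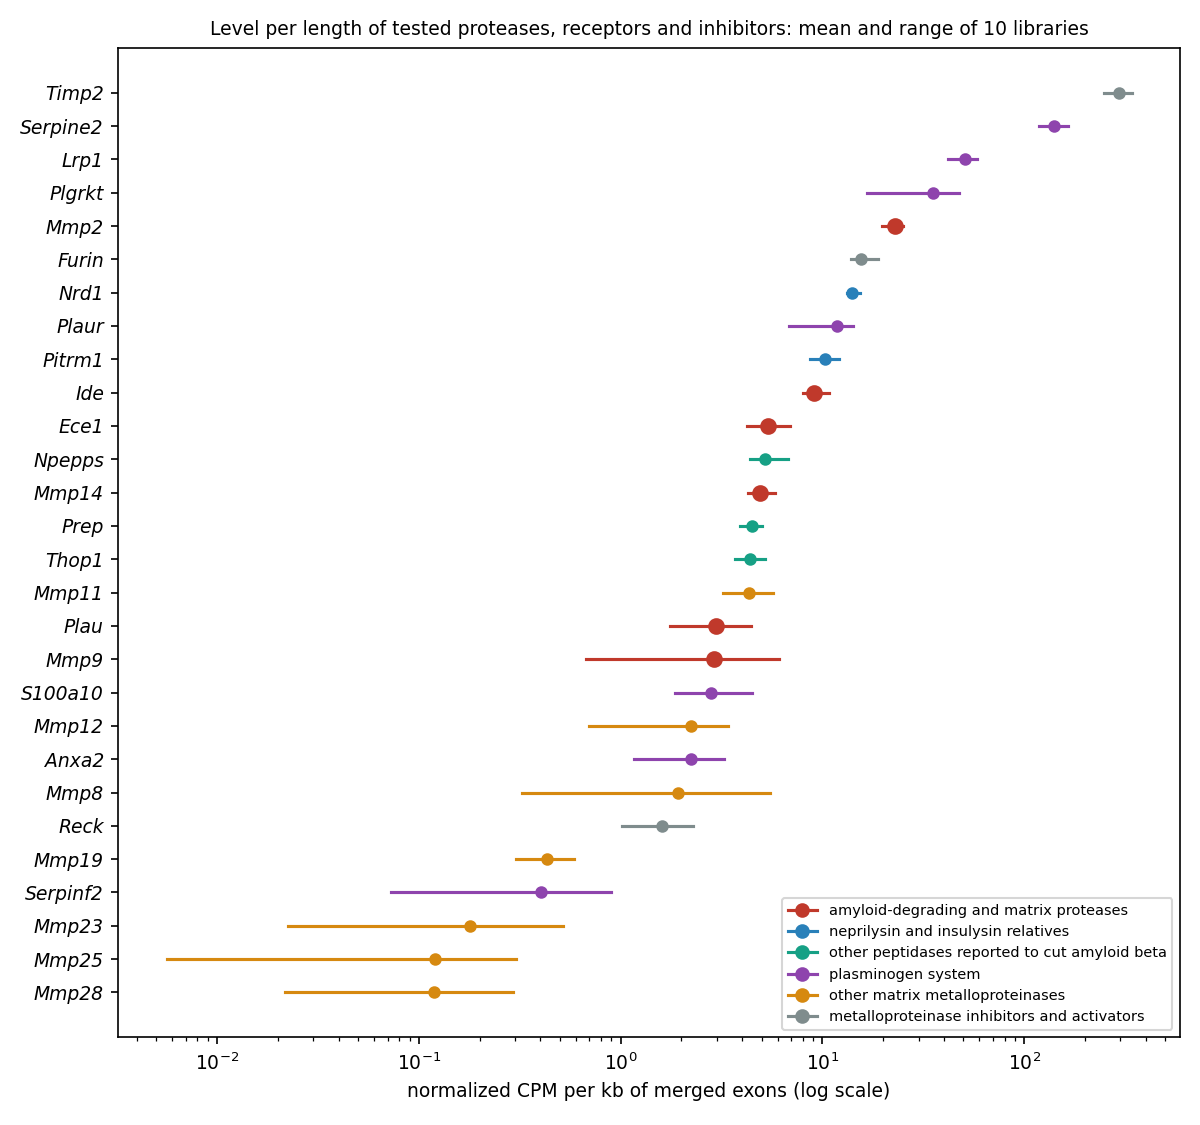
Level per length on a log axis (normalized CPM per kb of merged exons) for tested proteases, receptors and inhibitors, with the mean as a point and the lowest to highest of 10 libraries as a line; *Ace*, *Serpini1* and *Mmp15*, which had a library at 0, are among the genes not drawn. *Timp2* (296 CPM per kb), *Serpine2* (140 CPM per kb), *Lrp1* (50.8 CPM per kb) and *Plgrkt* (35.4 CPM per kb) have higher means than all 6 detected members. Of these members *Mmp2* is the highest and *Mmp9* has the widest range.

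Whether GA altered the transcripts was tested with edgeR over all 14481 genes. None of the 6 members passed an adjusted p under 0.05 (background 0% of genes called), none had an unadjusted p under 0.05 (background 5.75%), and none had groups that did not overlap (background 0.891%). DESeq2 also called none of them, against 2 genes or 0.0106% of the genes for which it gave an adjusted p. Of the 6, 5 had a lower fitted level in GA and 1 a higher, with a median log2 fold change of -0.08, and over all tested genes 49.9% were lower and the median was 0.00. The 95% intervals of the members all included 0.

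**Figure D2:**
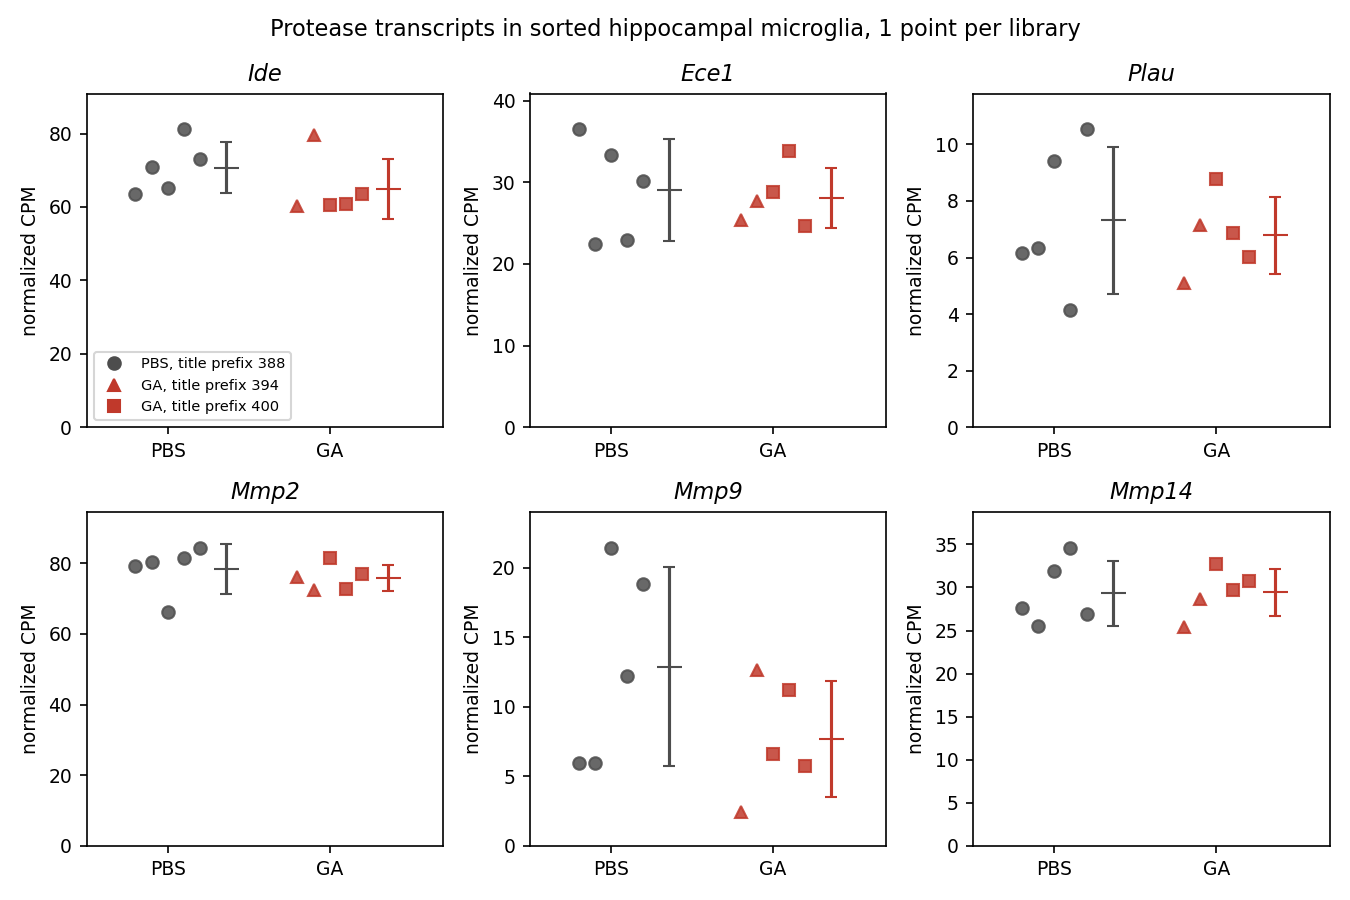
Normalized CPM of the 6 detected members in each library, by treatment, on linear axes from 0; points are libraries, marker shapes give the title prefix, and bars give the group mean ± SD of 5 libraries. The groups overlap in every panel, and *Mmp9*, from 2.40 to 21.5 CPM, has the widest spread relative to its mean.

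*Ide*, the Aβ-cutting insulysin, was counted 2014 to 2834 times per library. PBS libraries 388_1 to 388_5 held 63.4, 70.8, 65.2, 81.2 and 73.2 CPM. GA libraries 394_1, 394_2, 400_1, 400_2 and 400_3 held 60.3, 79.5, 60.6, 60.7 and 63.6 CPM. The GA libraries 394_1, 400_1 and 400_2 lay below all PBS libraries, and 394_2 stood near the top of the PBS range. The log2 fold change was -0.12 (SE 0.09, 95% interval -0.33 to 0.08, edgeR adjusted p = 0.910), and the two-sided exact permutation p was 0.254. Without 394_2 the log2 fold change was -0.21 with an unadjusted edgeR p of 0.0268 and an adjusted p of 0.661, and the exact permutation p was 0.0317. Library 394_2 was the GA library farthest from the others, so these lower p-values follow from which library was removed. With any other library left out, the log2 fold change was -0.16 to -0.07. The unadjusted edgeR p was then 0.130 to 0.462 and the exact permutation p 0.190 to 0.508. With the title number as a block the log2 fold change was -0.04.

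*Ece1*, whose enzyme processes endothelin and degrades Aβ in acidic vesicles, was counted 741 to 1396 times per library. PBS libraries held 36.5, 22.4, 33.4, 22.9 and 30.1 CPM . GA libraries held 25.4, 27.7, 28.8, 33.8 and 24.7 CPM. All GA values fell inside the PBS range. The log2 fold change was -0.05 (SE 0.14, 95% interval -0.35 to 0.25, edgeR adjusted p = 0.976).

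*Plau*, the urokinase gene, was counted 134 to 372 times per library. PBS libraries held 6.15, 6.33, 9.40, 4.15 and 10.5 CPM. GA libraries held 5.09, 7.15, 8.77, 6.86 and 6.02 CPM. The GA values again lay within the PBS range, from its lowest library 388_4 to its highest 388_5. The log2 fold change was -0.11 (SE 0.24, 95% interval -0.62 to 0.40, edgeR adjusted p = 0.972).

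*Mmp2*, gelatinase A, was the steadiest member, with a coefficient of variation of 7.05% over the 10 libraries. PBS libraries held 79.2, 80.4, 66.3, 81.4 and 84.4 CPM. GA libraries held 76.1, 72.4, 81.5, 72.7 and 77.0 CPM. Library 388_3 was the lowest of all, and the other 9 lay within the span of 72.4 to 84.4 CPM. The log2 fold change was -0.05 (SE 0.07, 95% interval -0.21 to 0.11, edgeR adjusted p = 0.963), the narrowest interval among the members. *Mmp2* is also known from fibroblasts and mural cells of vessels, and here the summed fibroblast markers reached at most 0.31 CPM and the summed mural markers 1.73 to 6.32 CPM, with *Rgs5* at 0 and *Pdgfrb* counted in every library (1.67 to 5.25 CPM). The part of such cells in the *Mmp2* level was not tested.

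*Mmp14*, the membrane-bound activator of proMMP-2, was counted 847 to 1197 times per library. PBS libraries held 27.6, 25.5, 31.9, 34.6 and 26.9 CPM. GA libraries held 25.4, 28.7, 32.8, 29.7 and 30.8 CPM. The groups overlapped nearly throughout, with only 394_1 below every PBS library. The log2 fold change was 0.01 (SE 0.10, 95% interval -0.21 to 0.23, edgeR adjusted p = 0.996).

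*Mmp9*, gelatinase B, which neutrophils store in granules, varied most, with a coefficient of variation of 59.9% and a highest library 8.96 times the lowest. It was counted 80 to 703 times per library. PBS libraries held 5.96, 5.97, 21.5, 12.2 and 18.8 CPM. GA libraries held 2.40, 12.6, 6.58, 11.2 and 5.73 CPM. Libraries 388_3 and 388_5 were the highest, GA libraries 394_1 and 400_3 lay below every PBS library, and the other 3 GA libraries lay within the PBS range. The log2 fold change was -0.74 (SE 0.42, 95% interval -1.65 to 0.17, edgeR adjusted p = 0.895), and the two-sided exact permutation p was 0.246. The unadjusted edgeR p was 0.103 with all libraries and turned on single libraries. It was 0.0478 without 388_1, 0.0493 without 388_2 and 0.0447 without 394_2, and 0.289 without 388_3 (log2 fold change -0.48), 0.239 without 388_5 and 0.204 without 394_1. The edgeR adjusted p was at least 0.716 with any library left out. With the title number as a block the log2 fold change was -0.36. The interval is wide enough to allow a level in GA between 0.319 and 1.13 times that in PBS.

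**Figure D3:**
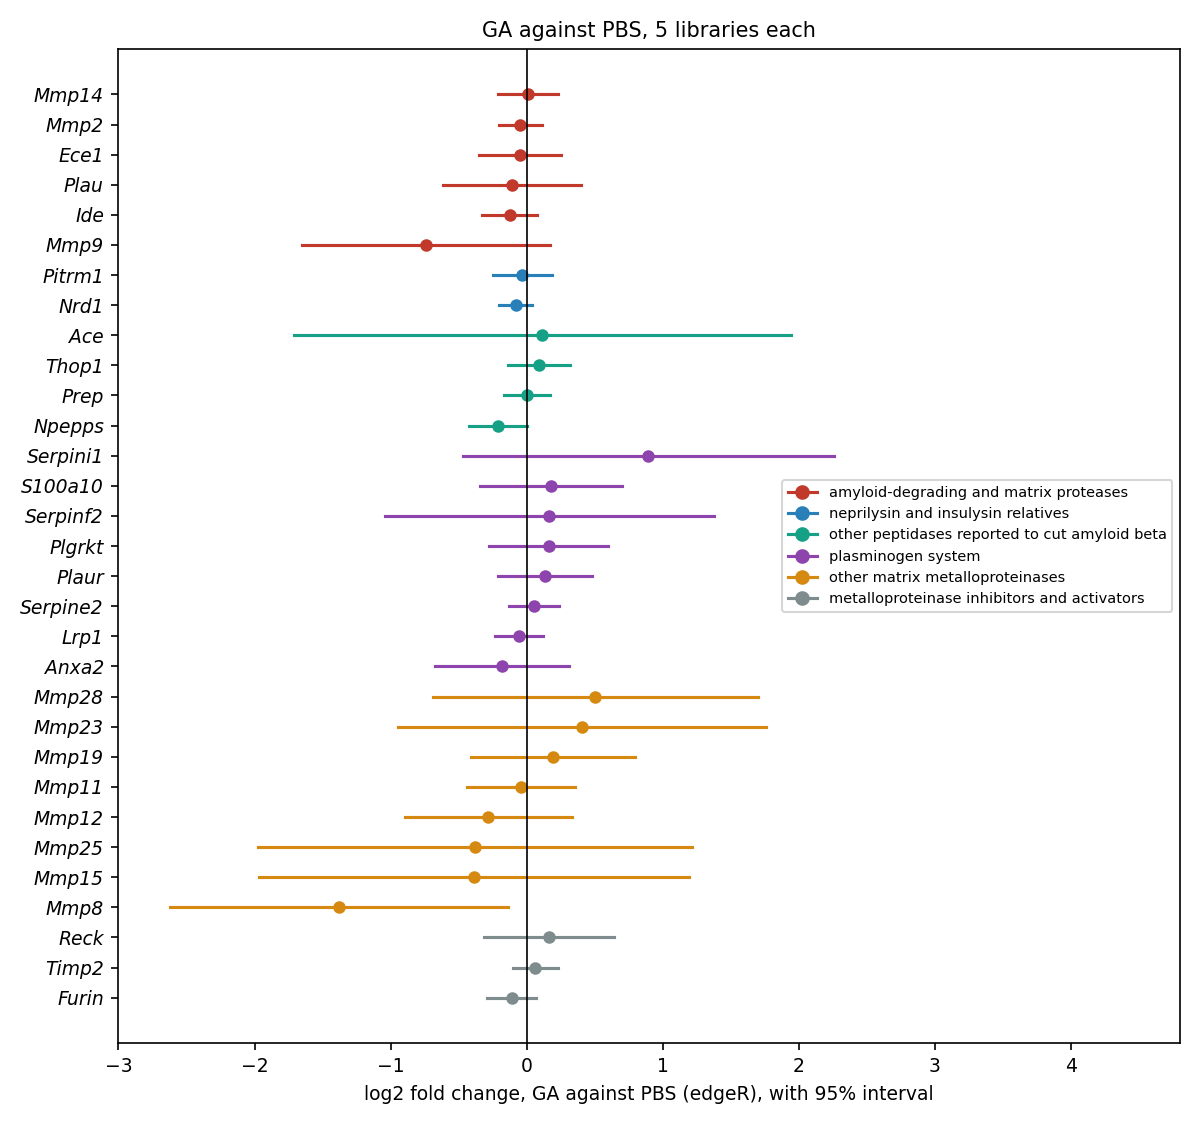
Log2 fold change of GA against PBS (edgeR) with 95% intervals for the 6 detected members and other tested genes of their pathways, 5 libraries per group. All intervals but that of *Mmp8* include 0, and those of *Mmp2*, *Ide* and *Mmp14* are the narrowest among the members.

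Levels of the members were set beside markers of other myeloid cells, and the part these cells play was not tested. The CD45int gate is meant to leave out CD45hi cells, such as most neutrophils and monocytes. The summed level of 10 neutrophil markers (*Ngp*, *Ltf* and *S100a9* the most abundant, 7 of 10 counted in every library, and *Mpo*, *Elane* and *Ly6g* under 1 CPM on average) was 157, 35.6, 437, 281 and 354 CPM in PBS libraries and 40.6, 162, 9.67, 17.9 and 103 CPM in GA libraries. The 4 libraries with the most *Mmp9*, namely 388_3, 388_5, 394_2 and 388_4, were also the 4 with the highest neutrophil sum. Libraries 400_1 and 400_2 went against this, with the lowest neutrophil sums beside 6.58 and 11.2 CPM of *Mmp9*. Over the 10 libraries, on log2 values, Pearson's r was 0.57 (permutation p = 0.0845, adjusted 0.338 over 12 relations) and Spearman's rho 0.62 (permutation p = 0.0607, adjusted 0.243). *Ide* followed the same sum about as closely, with r = 0.59 (permutation p = 0.0782, adjusted 0.338) and rho = 0.66 (permutation p = 0.0439, adjusted 0.243), and neither relation passed the adjustment. Libraries 400_1 and 400_2, farthest from the median sum on the log2 scale, are also those that went against the relation of *Mmp9*. Without them r was 0.88 for *Mmp9*, a rise that follows from which libraries were removed and supports nothing, and it rose to 0.66 for *Mmp14*, 0.54 for *Ece1* and 0.46 for *Plau*, and fell to 0.37 for *Ide*. The 7 neutrophil markers counted in every library correlated with *Mmp9* at r of 0.45 (*Camp*, rank 1405 of 14480 genes) to 0.91 (*Retnlg*, rank 5), with *Ngp* at 0.53, *Ltf* at 0.47 and *S100a9* at 0.63.

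*Mmp14* varied with border macrophage markers, which label macrophages of the meninges and perivascular spaces. The summed level of the 5 markers (*Mrc1*, *Cd163* and *Lyve1* the most abundant, 5 of 5 counted in every library) was 60.3, 29.5, 96.9, 165 and 35.1 CPM in PBS libraries and 34.2, 56.6, 60.6, 121 and 58.6 CPM in GA libraries. Pearson's r with *Mmp14* was 0.83 (permutation p = 0.00344, adjusted 0.0413) and Spearman's rho 0.85 (permutation p = 0.00298, adjusted 0.0358), and r was 0.85 without 388_4 and 400_2. The other 9 relations had adjusted p-values of at least 0.57 for r and 0.75 for rho. The relations were chosen after the data had been seen. Only the neutrophil and border macrophage sums were related to the members, and the adjusted p-values cover those 12 relations alone. Sums of the other marker lists, such as monocytes and astrocytes, were not related to *Mmp14*. The relation is therefore not shown to be particular to border macrophages. No correlation was computed within a prefix (5, 2 and 3 libraries). Within the 5 PBS libraries *Mmp14* and the border macrophage sum had the same order, while among the 400 libraries 400_2 had the highest sum and the least *Mmp14*. In bulk samples a change in the number of such cells cannot be told apart from a change in RNA per cell.

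**Figure D4:**
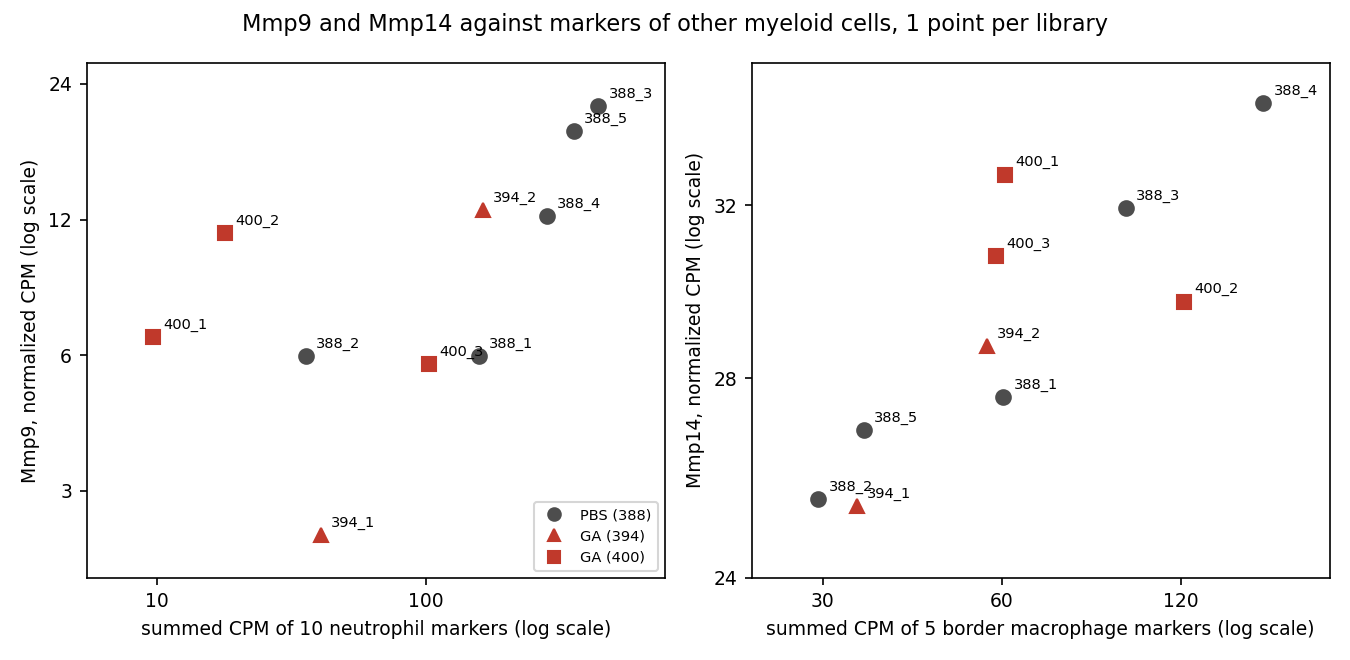
Left, *Mmp9* CPM against the summed CPM of 10 neutrophil markers; right, *Mmp14* CPM against the summed CPM of 5 border macrophage markers, all axes logarithmic and each point a library labelled by title. *Mmp9* is highest in 388_3 and 388_5, which have the highest neutrophil sums, while 400_1 and 400_2 lie apart; *Mmp14* rises with the border macrophage sum from 388_2 to 388_4.

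The members showed no common pattern over libraries. Among 15 pairs of the 6 members, Pearson's r of log2 values ran from -0.41 (*Ide* with *Ece1*) to 0.54 (*Plau* with *Mmp9*), and *Plau* with *Ece1* gave 0.53. Each member had closer companions elsewhere in the table, named by the highest r over the 10 libraries as a description. For *Ide* these were *Fam210a* (0.95), *Mrtfb* (0.95) and *Gm7115* (0.94). For *Ece1* they were *Nadk* (0.91), *Mybl2* (0.91) and *Zmiz1* (0.91). For *Plau* they were *Kcnd1* (0.94), *Selenon* (0.94) and *Gm22027* (0.94). For *Mmp2* they were *Cops4* (0.92), *Gins1* (0.91) and *Pmel* (0.90). For *Mmp9* they were *Pfkl* (0.94), *Tbl1xr1* (0.94) and *Grtp1* (0.92). For *Mmp14* they were *Dctn3* (0.93), *Ifi203* (0.93) and *Rpl41* (0.92). They are the highest of 14480 values computed over only 10 libraries, and *Gm7115*, *Gm22027*, *Mybl2* and *Pmel* were at under 1 CPM.

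The wider protease system was examined through lists of related genes. Among the neprilysin and insulysin relatives, 2 of 6 were tested and both were slightly lower in GA without passing any test. *Nrd1*, nardilysin, held 103 ± 4.23 CPM in PBS and 97.8 ± 2.36 CPM in GA (SD, n = 5 each), with a log2 fold change of -0.08 (SE 0.06, edgeR adjusted p = 0.901). *Pitrm1*, a mitochondrial peptidase that degrades Aβ, held 50.0 ± 6.52 and 48.9 ± 4.93 CPM. *Phex* and *Mmel1*, membrane peptidases of the neprilysin family, were under 0.2 CPM on average, and *Kel* was at 0. Per length, *Nrd1* (14.1 CPM per kb) and *Pitrm1* (10.3 CPM per kb) had higher means than *Ide* by merged exon length. The ranges of *Pitrm1* (8.65 to 12.1 CPM per kb) and *Ide* (8.04 to 10.8 CPM per kb) overlapped, and *Ide* was at 13.7 CPM per kb by its longest transcript, a length not applied to the other pair.

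Among 5 other peptidases reported to cut Aβ, 4 were tested, of which 3 were higher and 1 lower in GA by the fitted value and none had an unadjusted p under 0.05. *Npepps*, puromycin-sensitive aminopeptidase, was the nearest to it, at 40.3 ± 5.36 CPM in PBS and 34.8 ± 2.90 CPM in GA (SD). Its log2 fold change was -0.21 (SE 0.10), with an unadjusted edgeR p of 0.0516 and an adjusted p of 0.872. *Prep*, prolyl oligopeptidase, held 49.0 ± 4.70 and 49.1 ± 1.82 CPM, and *Thop1*, which cleaves short neuropeptides, held 21.4 ± 1.29 and 22.8 ± 3.20 CPM. *Ace*, which can cut Aβ, was low, at 0.46 ± 0.46 and 0.50 ± 0.47 CPM.

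The plasminogen system was represented by receptors and inhibitors far more than by the activators. *Plg*, which encodes plasminogen, and *Serpinb2*, an inhibitor of urokinase, had 0 counts in all 10 libraries. *Serpine2*, protease nexin-1, a secreted inhibitor of serine proteases including urokinase, held 1137 ± 132 CPM in PBS and 1180 ± 115 CPM in GA. Per kb of merged exons the level of *Serpine2* was 35.0 to 72.0 times that of *Plau* over the libraries. *Lrp1*, the endocytic receptor that clears protease-inhibitor complexes, held 919 ± 77.3 and 882 ± 96.3 CPM. *Plgrkt*, a plasminogen receptor, held 127 ± 43.6 and 142 ± 21.5 CPM, and *Plaur*, the urokinase receptor, held 29.5 ± 7.06 and 32.4 ± 4.64 CPM. Of 9 tested genes of the 11, 6 were higher and 3 lower in GA by the fitted value, with a median log2 fold change of 0.13, and none had an unadjusted p under 0.05.

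Of 20 other matrix metalloproteinases, 8 were tested and 6 had 0 counts in all libraries. *Mmp12*, the macrophage elastase, held 17.8 ± 4.92 CPM in PBS and 14.7 ± 5.81 CPM in GA. *Mmp11*, stromelysin-3, held 12.2 ± 2.87 and 11.9 ± 2.71 CPM, and *Mmp19* held 1.43 ± 0.40 and 1.63 ± 0.29 CPM. *Mmp8*, the neutrophil collagenase, held 6.76 ± 4.97 CPM in PBS and 2.59 ± 2.24 CPM in GA. Its log2 fold change was -1.38 (SE 0.58), with an unadjusted edgeR p of 0.0320 and an adjusted p of 0.854. It was the single one of the 8 tested genes of the list with an unadjusted p under 0.05, beside 5.75% of all tested genes, and its r with *Mmp9* over the 10 libraries was 0.68, rank 272 of 14480 genes. The 7 neutrophil markers that were tested had edgeR log2 fold changes of -2.44 (*Camp*, unadjusted p = 0.00458) to -1.27 (*Retnlg*, unadjusted p = 0.0952), with adjusted p-values of at least 0.847, and the part of such cells in the *Mmp8* and *Mmp9* values was not tested. The 8 tested genes split into 3 higher and 5 lower by the fitted value, with a median log2 fold change of -0.16.

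Among 7 inhibitors and activators of metalloproteinases, *Timp2* dominated. It held 1129 ± 130 CPM in PBS and 1179 ± 71.6 CPM in GA (log2 fold change 0.06, SE 0.08, edgeR adjusted p = 0.9496). Per kb of merged exons its level was 10.2 to 15.0 times that of *Mmp2* and 42.6 to 75.4 times that of *Mmp14* in the individual libraries. The ratio to *Mmp14* depends on the length used, since *Mmp14* was at 4.93 CPM per kb by merged exons and 9.07 by its longest transcript. *Timp1* had 0 counts in all 10 libraries, and *Timp3* had 22 counts in all. *Furin*, which cleaves proMMP-14, held 149 ± 19.2 and 138 ± 7.17 CPM, and *Reck*, a membrane-anchored inhibitor of these enzymes, held 7.25 ± 2.58 and 8.13 ± 1.40 CPM. The 3 tested genes gave 2 higher and 1 lower by the fitted value, none with an unadjusted p under 0.05.

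Since GA libraries came under the prefixes 394 and 400, the prefixes were compared within GA. For 400 against 394, the log2 difference was -0.18 (SE 0.13) for *Ide*, 0.13 (SE 0.21) for *Ece1*, 0.24 (SE 0.35) for *Plau*, 0.05 (SE 0.11) for *Mmp2*, 0.06 (SE 0.64) for *Mmp9* and 0.20 (SE 0.15) for *Mmp14*. No member passed this test with edgeR (adjusted p = 0.9996 for each, and unadjusted p at least 0.191), against 2 genes or 0.0138% of all tested, a count that was 0 without 394_1, 3 without 400_1 and 1 without 400_2. DESeq2 also called no member, with an adjusted p of 1 for each, against 64 genes or 0.39% of those it tested. Against PBS, *Ide* had a log2 fold change of -0.01 with the 394 libraries alone and -0.19 with the 400 libraries alone, and *Mmp9* had -0.77 and -0.71.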

How the data were processed

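The authors deposited raw read counts per gene symbol, and no other unit was used. Per the submitters' processing notes, reads went through bcl2fastq 2.19.0, fastp 0.20.0, STAR 2.7.0f and Subread 1.6.4 (featureCounts) on GRCm38.p6, and DESeq2; annotation and strand setting are not given in the sources used here. The cDNA kit (SMARTer v4) and library kit (Nextera XT) keep neither strand nor molecular identifiers. The limits at 0 counts and the binomial interval of *Ece2* therefore cover counting error only, while edgeR intervals include the spread between libraries.

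All libraries were mapped to groups by the treatment label. CPM used TMM-normalized library sizes. The test was edgeR 4.0.16's quasi-likelihood F-test (R 4.3.3; filterByExpr, minimum count 10; Benjamini-Hochberg over 14481 genes), tested on simulated counts first. Alternatives were DESeq2 1.42.0, limma-voom (limma 3.58.1), other scalings and filters, each prefix alone, a title-number block and each library left out. Single values were tested by two-sided exact permutation of log2(CPM + 0.1) (252 arrangements, smallest p 0.00794), and relations over 10 libraries by permutation. No library pair agreed within sampling noise (chi-square per degree of freedom 13.0 to 50.9). Exon lengths and coding sequences came from GENCODE M21, matched for 99.3% of tested genes.

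Named were all members, the 4 most abundant genes of each pathway list and those at unadjusted p under 0.05, the 3 genes most alike each member, genes sharing exons with one, and the 3 most abundant and the absent genes of the marker lists; genes at 0 and the other genes, such as *Retnlg*, were named after their values were seen. The members and lists were chosen with earlier results of these data known. Some listed genes and a transgene are not reported here.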

Additional observations from a re-analysis of the deposited data

Results flagged for a closer look

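The 12 sets of 5 libraries (6 members in each group) were examined for a library far from the rest, judged by its gap to the nearest library over the group's range against a limit of 0.71, which chance passes in about 1 of 20 sets. There were 2. *Ide* in GA library 394_2 was 79.5 CPM, against 60.3 to 63.6 CPM in the other GA libraries (gap over range 0.827). *Mmp2* in PBS library 388_3 was 66.3 CPM, against 79.2 to 84.4 CPM in the other PBS libraries (gap over range 0.712).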

How the results depend on the processing

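The count of members called at an adjusted p under 0.05 was 0 under every alternative run. The count at an unadjusted p under 0.05 was 0 except with a library left out, where it ran from 0 to 2. Over all genes the adjusted count was 2 with DESeq2 and 0 to 1 with a library left out (1 without 394_1). Fold changes near 0 changed sign: *Ece1* was 0.0059 with GA prefix 400 alone, *Mmp14* was -0.11 with prefix 394 alone, and *Mmp2* was 0.0013 with the title number as a block. With each library left out, the log2 fold change ran from -0.13 to 0.046 for *Ece1*, -0.26 to 0.063 for *Plau* and -0.038 to 0.075 for *Mmp14*, and kept its sign for *Ide* (-0.21 to -0.07), *Mmp2* (-0.10 to -0.01) and *Mmp9* (-0.99 to -0.48). The mean log2 difference used for permutation ran from -0.12 to 0.057, -0.24 to 0.094 and -0.036 to 0.074 for the same first 3 genes. The edgeR difference between prefixes ran from -0.37 to 0.032 for *Ide* and -0.69 to 1.71 for *Mmp9*; leaving out 394_1 or 394_2 leaves 1 library in that arm, assumed to vary like the others. The cause of these shifts was not tested. With the replicate block 0 members were called, and the log2 fold change moved to -0.36 for *Mmp9*, -0.04 for *Ide*, -0.13 for *Ece1*, -0.06 for *Plau* and 0.08 for *Mmp14*. Title numbers repeat within GA, and deviations of same-numbered libraries correlated at -0.12 to 0.05, so the numbers were not taken to pair samples.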
